A study of Mus musculus with 2 samples.

Results

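The genes described here are 40 interferon-stimulated genes, read from the 17238 genes of the authors' table of single-cell counts from gut innate lymphoid cells (ILCs). They were taken from a named list: 12 GTPase members (the Gbp genes, Irgm1, Irgm2, Igtp, Iigp1 and Ifi47), 9 antiviral members (Ifit1, Ifit2, Ifit3, Isg15, Isg20, Oasl2, Oas1a, Rtp4 and Usp18) and 19 others. All 40 were in the table, and 38 reached 20 UMIs (unique molecular identifiers, each standing for 1 captured transcript) over both libraries; Ifit2 and Ifitm1 did not. Sorted IL7ra+ ILCs came from the small intestine or the colon of fed C57BL/6 mice aged 8 weeks, each library being a pool of 8 mice. There was 1 library per tissue, so tissue and library cannot be told apart, no test between tissues was possible, and every interval given below covers counting error only. Cells were compared in groups, each with at least 1 UMI of a marker gene. The markers were Ccr6 (a receptor of lymphoid tissue inducer-like ILC3) and Ncr1 (NKp46, carried by NCR+ ILC3, ILC1 and NK cells). Further markers were Gata3 (the factor most abundant in ILC2) and Klrd1 (CD94, of NK cells and ILC1). The last was Cd3e (a CD3 chain of the T cell receptor complex).

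Interferons act through 2 related routes. Type I interferons bind IFNAR1 and IFNAR2, and a complex that includes STAT2 and IRF9 binds the interferon-stimulated response element (ISRE) of genes such as Isg15, the Ifits and the Oas genes. Interferon gamma, made by NK cells, ILC1 and T cells, binds IFNGR1 and IFNGR2, and the signal reaches gamma-activated sites (GAS) in genes such as Irf1, whose product then acts on the Gbp and immunity-related GTPase (IRG) genes. The GTPases coat and break the vacuoles of intracellular microbes, whereas the antiviral members bind, cut or tag foreign RNA and protein. Many of these genes answer to both interferons, so the list names are shorthand and not a measure of which interferon acted.

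RefSeq (GRCm38.p6) gave a promoter, 250 bases before to 50 after the start, for 30 of the 40 members. The ISRE-like motif, searched on both strands as GAAA, any 2 bases and GAAA again, lay in 16 of these 30 genes (53.3%), against 3.99% of the 27025 genes with a promoter. It lay in 7 of 8 GTPase members and in 4 of 7 antiviral members. The GAS-like letters TTCNNNGAA, which read the same on both strands, lay in 12 of 30 members (40%) against 9.55% of all genes, with 4 of 8 GTPase and 3 of 7 antiviral members. Both motifs lay in 7 members (Gbp5, Gbp7, Igtp, Irgm2, Oas1a, Bst2 and Ifitm3), which is 23.3% against 0.614% of all genes. Oasl2, which differed between the libraries by 3.01-fold, held neither in this window.

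The 250 bases before the start of 6 members that the results turn on are printed here, 5′ to 3′ on the gene's own strand, with each motif match in capitals; where matches overlap or touch, the capitals run together. Igtp (chr11:58199306-58199555, plus strand) and Gbp7 (chr3:142530086-142530335, plus strand) are GTPase members with both motifs. Isg15 (chr4:156200819-156201068, minus strand) and Ifit1 (chr19:34640639-34640888, plus strand) are the antiviral members behind the higher colonic sum of their list in Ccr6-positive cells. In Ncr1-positive cells the higher colonic sum rested on Isg15. Irf1 (chr11:53769764-53770013, plus strand) has a GAS-like match alone, and Bst2 (chr8:71537473-71537722, minus strand) marks Ccr6-positive cells.
Igtp: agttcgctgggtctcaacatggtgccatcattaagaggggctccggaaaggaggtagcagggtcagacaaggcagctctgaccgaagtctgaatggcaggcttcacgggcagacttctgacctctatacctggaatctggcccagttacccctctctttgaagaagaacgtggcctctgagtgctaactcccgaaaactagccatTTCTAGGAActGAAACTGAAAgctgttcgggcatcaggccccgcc
Gbp7: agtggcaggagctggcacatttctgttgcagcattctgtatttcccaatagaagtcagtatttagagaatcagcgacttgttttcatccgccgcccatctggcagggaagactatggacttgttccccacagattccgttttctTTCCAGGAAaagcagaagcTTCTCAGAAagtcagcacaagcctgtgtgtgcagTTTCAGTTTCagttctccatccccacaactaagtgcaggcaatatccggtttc
Isg15: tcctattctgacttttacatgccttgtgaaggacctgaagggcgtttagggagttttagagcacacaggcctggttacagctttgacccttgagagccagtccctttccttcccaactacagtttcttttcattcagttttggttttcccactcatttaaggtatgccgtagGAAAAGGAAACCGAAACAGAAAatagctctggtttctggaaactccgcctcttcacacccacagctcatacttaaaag
Ifit1: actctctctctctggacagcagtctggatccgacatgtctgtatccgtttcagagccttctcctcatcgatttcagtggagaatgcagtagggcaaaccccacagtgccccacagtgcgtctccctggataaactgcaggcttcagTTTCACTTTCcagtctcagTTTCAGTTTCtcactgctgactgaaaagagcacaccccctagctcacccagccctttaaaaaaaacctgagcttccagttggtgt
Irf1: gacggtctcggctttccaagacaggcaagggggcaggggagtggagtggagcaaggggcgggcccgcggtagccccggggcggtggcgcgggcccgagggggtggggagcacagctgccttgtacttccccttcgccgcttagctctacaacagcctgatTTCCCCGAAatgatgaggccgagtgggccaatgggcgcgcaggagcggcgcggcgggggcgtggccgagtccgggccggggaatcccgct
Bst2: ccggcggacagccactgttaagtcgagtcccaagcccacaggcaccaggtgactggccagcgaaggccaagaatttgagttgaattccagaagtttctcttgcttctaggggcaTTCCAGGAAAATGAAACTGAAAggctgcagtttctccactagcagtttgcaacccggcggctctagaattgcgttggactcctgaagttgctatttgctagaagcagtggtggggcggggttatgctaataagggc
In Igtp the GAS-like match began 45 bases before the start and the ISRE-like match 34 bases before it. Isg15 held 3 overlapping ISRE-like matches, the first of them 78 bases before the start, and no GAS-like match. Ifit1 held 2 ISRE-like matches on the opposite strand, at 104 and 85 bases. A match is a description of letters and not evidence of binding.

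The small intestine library held 5490 cells and the colon library 7549 cells, with a median of 2579 and 2600 UMIs per cell and 15080081 and 22332691 UMIs in all. The groups held, in the small intestine and the colon, 541 and 357 Ccr6-positive, 1605 and 665 Ncr1-positive, 1643 and 4218 Gata3-positive, 172 and 482 Klrd1-positive, and 429 and 1384 Cd3e-positive cells. A cell could fall into more than 1 group: 724 small intestinal and 1022 colonic cells did, among them 59.7% of the colonic Ncr1-positive and 31.3% of the small intestinal Ncr1-positive cells, so the groups are not independent. Colonic Ccr6-positive cells were deeper than small intestinal ones, with a median of 3443 against 2366 UMIs, and 50.1% against 30.3% of them were positive for another marker; the part of this in their ratios was not tested. The sort was not pure by its RNA, since Cd3e-positive cells carried Trdc, a gamma delta T cell receptor gene, at 1481 and 1456 CPM (UMIs per 1000000 UMIs of the group), and the immunoglobulin genes Igkc, Igha and Jchain with Cd79a and Ms4a1 summed to 7188 and 2454 over all cells. At most 10 UMIs of Igkc, Igha and Jchain were found in 5477 of 5490 small intestinal and 7539 of 7549 colonic cells. Few cells thus held most of the immunoglobulin UMIs. Myeloid markers (Lyz2, Cd68, Csf1r, Itgax and Adgre1) summed to 1.86 and 3.58, with Csf1r at 0. The libraries shared 60 cell barcodes, where chance gives 56.2. Levels are CPM throughout; the method reads transcript ends, so they are not divided by gene length. Over all cells the log2 ratio of the median gene was 0.20 in favour of the small intestine and within the 5 groups it was 0.15 to 0.21, and each ratio below should be read from that base.

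The GTPase members were higher in the small intestine library in every group of cells. Their summed level over all cells was 324 CPM in the small intestine (95% counting interval 315 to 333) and 198 in the colon (193 to 204), a ratio of 1.63 (1.57 to 1.70). Gata3-positive cells stood furthest apart, at 345 and 181 CPM, a ratio of 1.91 (1.79 to 2.03). Klrd1-positive cells had the highest small intestinal level, 398 CPM against 243 in the colon, a ratio of 1.64 (1.37 to 1.95). Cd3e-positive cells had 341 and 234 CPM, a ratio of 1.45 (1.29 to 1.64), and Ccr6-positive cells 205 and 146, a ratio of 1.40 (1.18 to 1.67). Ncr1-positive cells had 362 and 291 CPM, the highest colonic level and the narrowest gap, at 1.24 (1.13 to 1.36). In the 1102 small intestinal and 268 colonic cells that were positive for Ncr1 and for none of the other 4 markers, the log2 ratio was −0.012, so the gap was not seen there. Ccr6-positive cells had the lowest GTPase level in both libraries.

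The antiviral members did not follow that pattern. Over all cells their sums were close, 189 CPM in the small intestine against 179 in the colon, a ratio of 1.05 (1.003 to 1.11). That interval is too narrow, because antiviral UMIs did not fall independently over cells, as given below. In Gata3-positive cells the small intestine was higher, 236 against 174 CPM, a ratio of 1.36, and in Cd3e-positive cells also, 241 against 139.7 CPM, a ratio of 1.73. In Ccr6-positive cells the colon was higher by 1.69-fold, 178 against 106 CPM, and in Ncr1-positive cells by 1.45-fold, 260.5 against 180.2 CPM. Klrd1-positive cells had 175 and 204 CPM, with an interval that included equality. The direction of the antiviral sum therefore differed among these groups of cells from the same 2 libraries. That of the GTPase sum did not, but its direction in Ncr1-positive cells is uncertain. There its log2 ratio of 0.31 had an interval (0.18 to 0.44) that included the 0.21 of the median gene. As given above, the gap was not seen in cells positive for Ncr1 alone.

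**Figure D1:**
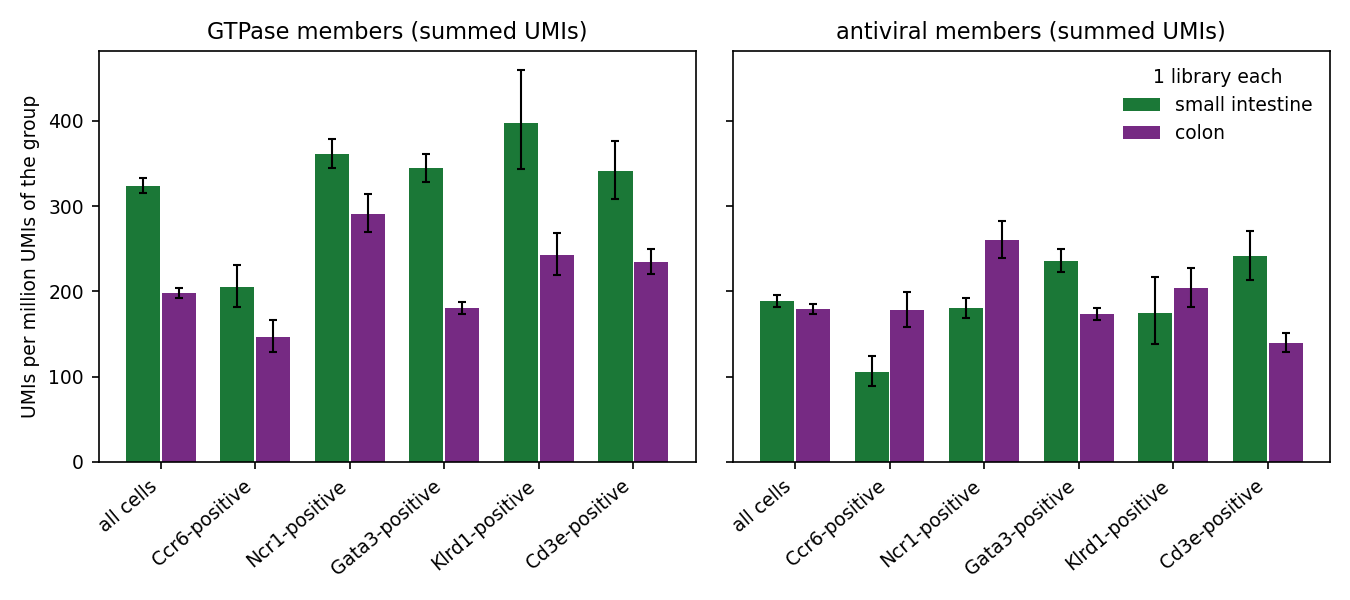
Summed CPM (y axis) for the 12 GTPase members (left) and the 9 antiviral members (right), in all cells and in the 5 marker-positive groups (x axis); bars are 1 library each, green for the small intestine and purple for the colon, and error bars are 95% Poisson counting intervals. The small intestine bar is the taller in every group on the left, whereas on the right the colon bar is the taller in Ccr6-positive, Ncr1-positive and Klrd1-positive cells.

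As a share of GTPase plus antiviral UMIs, a measure that does not depend on how a library is scaled, the GTPase members made up 63.2% for the small intestine (Clopper-Pearson interval 62.1 to 64.3) and 52.5% in the colon (51.5 to 53.6). The share was higher in the small intestine in 4 groups: 66.1% against 45.1% in Ccr6-positive, 66.7% against 52.8% in Ncr1-positive, 59.4% against 51.0% in Gata3-positive and 69.5% against 54.4% in Klrd1-positive cells. Cd3e-positive cells were the exception, with 58.6% for the small intestine against 62.7% for the colon, and their intervals (54.7 to 62.3 and 60.2 to 65.1) overlapped. The order of these shares rested in part on the most abundant gene of each list, Gbp7 and Isg15. Without both, the share was 78.2% against 80.8% in Ncr1-positive cells, now higher in the colon, 81.4% against 80.8% in Gata3-positive and 83.7% against 81.2% in Klrd1-positive cells, while Ccr6-positive cells kept a gap, at 80.7% against 64.1%. Among the colonic Ccr6-positive cells behind the 64.1%, those with 28 and 16 Ifit1 UMIs had no GTPase UMI. That share without these cells was not measured. With all genes the 5 small intestinal groups ran from 58.6% to 69.5%, and the colonic ones from 45.1% to 62.7%.

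Single genes were called apart where they had at least 20 UMIs over both libraries and a ratio of at least 2. Over all cells 8.92% of the 11962 genes with enough UMIs were higher by 2-fold or more in the small intestine library and 5.42% in that of the colon; among the members these were 9 of 38 and 1 of 38. The 9 were 6 GTPase members (Igtp, Iigp1, Gbp2, Gbp5, Gbp6 and Irgm2) and 3 antiviral members (Oasl2, Oas1a and Ifit3), and the colonic one was Ifitm3. The median log2 ratio was 0.94 over the 12 GTPase members, 0.41 over the 8 antiviral members with enough UMIs and 0.20 over all genes tested. In Gata3-positive cells the background was 7.42% and 4.4%, and 11 and 1 of 37 members were apart, 7 of the 11 being GTPase members. In Klrd1-positive cells it was 7.17% and 4.88%, with 5 and 0 of 27 members. Ccr6-positive cells had a background of 7.47% and 3.4%, with 3 and 1 of 27 members, and Cd3e-positive cells one of 5.12% and 4.27%, with 6 and 1 of 33. Ncr1-positive cells, with a background of 9.26% and 4.13%, had 2 and 3 of 34 members and no GTPase member past 2-fold.

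**Figure D2:**
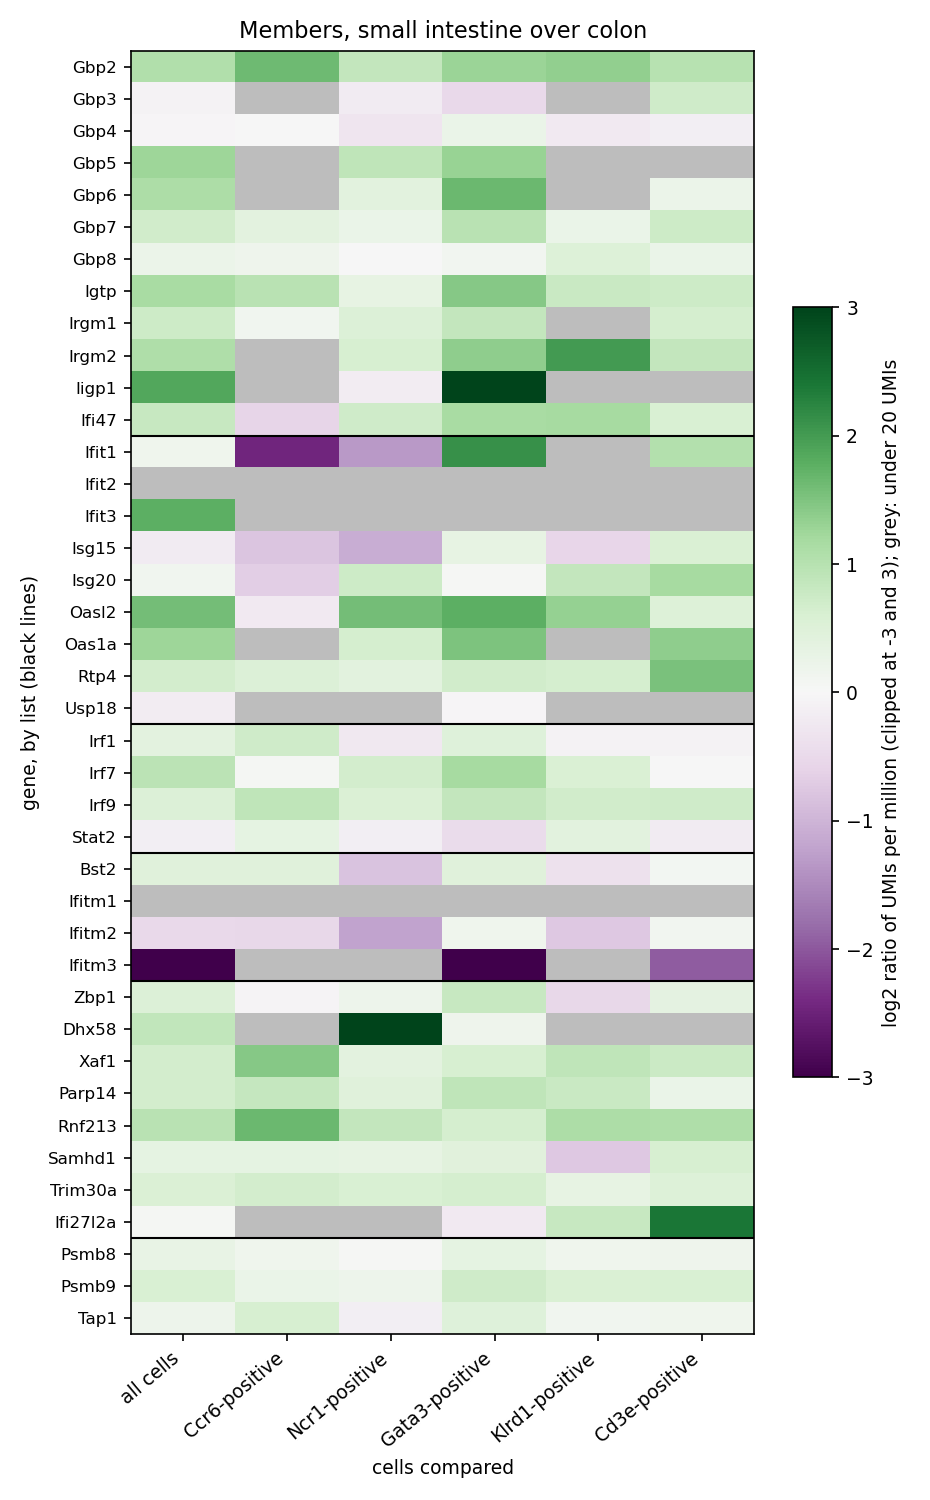
Log2 ratio of CPM, small intestine over colon, for each of the 40 members (rows, grouped by list between black lines) in all cells and in the 5 marker-positive groups (columns); green is higher in the small intestine, purple in the colon, and grey marks genes under 20 UMIs over both libraries. The GTPase rows at the top are mostly green, deepest in Gata3-positive cells, and Ifitm3 is purple wherever it is shown.

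Among the GTPase members, the IRG genes (Igtp, Irgm1, Irgm2, Iigp1 and Ifi47), whose products act on the vacuole membrane, were further apart than the Gbp genes over all cells. Over all cells their sum was 127 CPM in the small intestine against 63.5 in the colon, a ratio of 1.99 (1.86 to 2.14), against 1.46 (1.39 to 1.54) for the 7 Gbp genes at 197 and 135 CPM. In Gata3-positive cells the IRG sum was 120.2 and 49.7 CPM, a ratio of 2.42 (2.17 to 2.71), and in Klrd1-positive cells 177 and 77.7, a ratio of 2.28 (1.70 to 3.03). In Ccr6-positive cells it was 74.0 and 61.2 CPM, with an interval that included equality, and there the Gbp genes were the further apart, at 131 and 85.1.

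Igtp (Irgm3, a regulatory IRG protein; ENSMUSG00000078853, chr11:58199556-58207591) was at 58.6 and 26.3 CPM over all cells, a ratio of 2.23 (2.01 to 2.48). It was highest in Ncr1-positive cells of both libraries, 78.2 and 62.8 CPM, and in the colon lowest in Gata3-positive cells, 17.8 CPM, where the small intestine had 48.1. Its letters near the start are those printed above. Iigp1 (Irga6, an effector IRG protein that loads onto vacuoles) was at 4.93 and 0.518 CPM in Gata3-positive cells, a ratio of 9.52, but this rested on 25 and 7 UMIs and its interval ran from 4.0 to 26.1. In Ncr1-positive cells Iigp1 was at 3.16 and 3.59 CPM. Irgm2, another regulatory IRG gene, was at 25.5 and 6.37 CPM in Klrd1-positive cells (12 and 10 UMIs), a ratio of 4.01 (1.59 to 10.4), and at 7.10 and 2.74 in Gata3-positive cells, a ratio of 2.59. Ifi47 (Irgd) was at 61.7 and 27.4 CPM in Klrd1-positive cells and at 44.4 and 19.98 in Gata3-positive cells, ratios of 2.26 and 2.22, whereas in Ccr6-positive cells it was at 17.2 and 25.7. Irgm1 stayed under 2-fold over all cells, at 14.1 and 8.42 CPM.

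Of the Gbp genes, whose products gather on microbial membranes and engage the inflammasome, Gbp7 was the most abundant and gave 19.0% of all GTPase UMIs. Gbp7 (chr3:142530342-142550149) was at 61.3 and 37.8 CPM over all cells and at 72.2 and 36.6 in Gata3-positive cells, ratios of 1.62 and 1.97. Gbp2 was the Gbp gene called apart in most groups: 41.7 and 13.5 CPM in Ccr6-positive cells (ratio 3.09, 1.86 to 5.31), 64.3 and 26.4 in Gata3-positive cells (2.44) and 53.2 and 21.0 in Klrd1-positive cells (2.53). In Ncr1-positive and Cd3e-positive cells Gbp2 was at 50.4 and 27.8 and at 44.7 and 22.5 CPM, just under 2-fold. Gbp6 was at 13.6 and 4.37 CPM in Gata3-positive cells, a ratio of 3.12 (2.17 to 4.49), and Gbp5, which promotes inflammasome assembly, at 5.13 and 2.07, a ratio of 2.48. Gbp4 did not differ in this way, at 38.2 and 39.4 CPM over all cells and at 44.7 and 54.7 in Ncr1-positive cells. Gbp3 and Gbp8 were likewise near equal over all cells, at 3.32 and 3.54 and at 25 and 21.6 CPM. Gbp4, Gbp6 and Gbp8 are close relatives on chromosome 5, and the annotated spans of Gbp4 and Gbp8 overlap, so reads of near-identical copies may be split between them. The annotated spans of Igtp and Irgm2 on chromosome 11 also overlap on 1 strand, so the counts of both are uncertain in the same way.

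In the antiviral list, Isg15, a ubiquitin-like tag for viral and host proteins (ENSMUSG00000035692, chr4:156199424-156200818), gave 70.7% of the UMIs, 4850 of 6856. Over all cells Isg15 was at 119 CPM in the small intestine against 136 in the colon. In Ncr1-positive cells it was at 95.5 and 203 CPM, 2.13-fold higher in the colon (1.86 to 2.43), in Ccr6-positive cells at 66.1 and 113, 1.71-fold higher in the colon (1.33 to 2.23), and in Klrd1-positive cells at 109 and 159, 1.47-fold higher in the colon (1.08 to 2.02). In Gata3-positive cells the order was the other way, 174 and 139.6 CPM, and in Cd3e-positive cells also, 137 and 91.8. The colon library thus had more Isg15 in Ccr6-positive, Ncr1-positive and Klrd1-positive cells and less in Gata3-positive and Cd3e-positive cells.

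Without Isg15, the sum of the other 8 antiviral members over all cells was 69.4 and 42.9 CPM, a log2 ratio of 0.69 (0.57 to 0.82) beside 0.71 for the GTPase members. In Ncr1-positive cells the log2 ratio was 0.56 without Isg15 and −0.53 with it. Without Isg15 it was 0.86 in Gata3-positive, 1.12 in Cd3e-positive and 0.57 in Klrd1-positive cells, the last with an interval that included 0. Ccr6-positive cells alone kept a higher colonic level, with a log2 ratio of −0.72. When Ifit1 was also left out, it was 0.00 in Ccr6-positive (−0.59 to 0.59) and 0.99 in Ncr1-positive cells (0.65 to 1.34). In Gata3-positive and Cd3e-positive cells the log2 ratio without both genes was 0.70 and 1.13, so there the antiviral sum kept its direction. The higher colonic antiviral sum of Ncr1-positive cells was thus not seen without Isg15, and that of Ccr6-positive cells not without Isg15 and Ifit1.

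**Figure D3:**
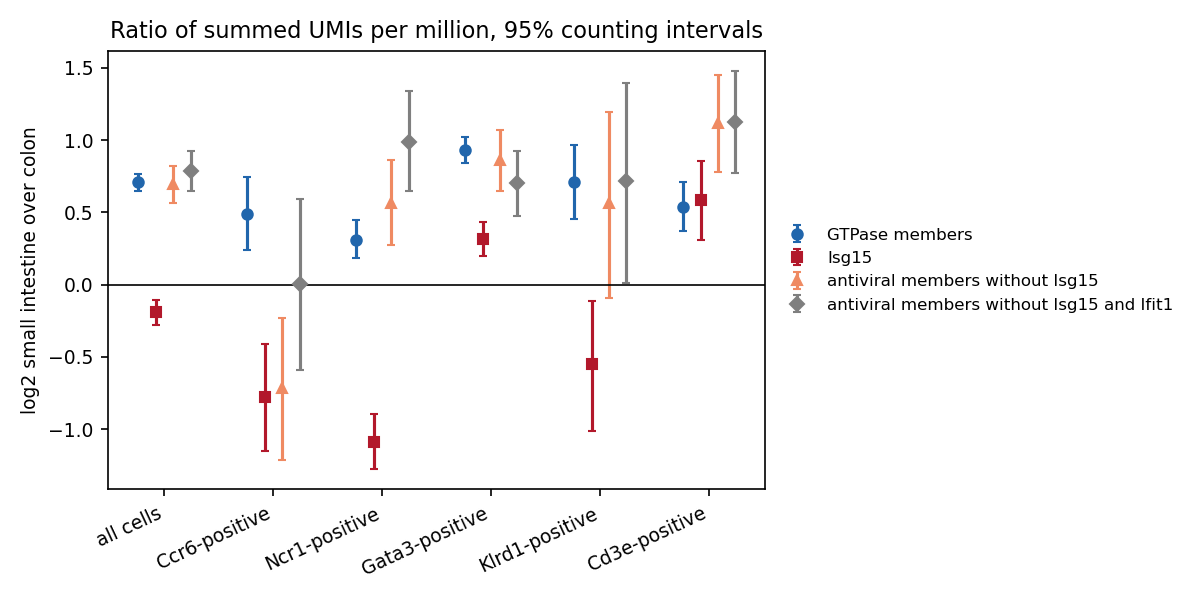
Log2 ratio of CPM, small intestine over colon (y axis), in all cells and in the 5 marker-positive groups (x axis) for the GTPase members, Isg15, the antiviral members without Isg15, and those without Isg15 and Ifit1; points are ratios of the 2 libraries and bars are 95% counting intervals. Isg15 lies below 0 in Ccr6-positive, Ncr1-positive and Klrd1-positive cells, while the antiviral members without Isg15 and Ifit1 lie above 0 in each group but Ccr6-positive cells, where their log2 ratio is 0.00.

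Oasl2, of the 2-5A synthetase family, was the most abundant of the 3 antiviral members past 2-fold over all cells. Over all cells Oasl2 was at 22.5 and 7.48 CPM, a ratio of 3.01 (2.49 to 3.64). It was at 36.04 and 12.1 CPM in Ncr1-positive cells (2.98) and at 13.0 and 3.85 in Gata3-positive cells (3.38), but at 11.5 and 13.5 in Ccr6-positive cells. Oas1a, which makes the 2-5A that activates RNase L, was at 8.49 and 2.96 CPM in Gata3-positive cells (2.87) and at 8.59 and 3.32 in Cd3e-positive cells (2.59, 1.03 to 6.26). In Cd3e-positive cells Rtp4, which restrains RNA viruses, was at 23.2 and 8.06 CPM (2.88, 1.67 to 4.91), and Isg20, an RNA exonuclease, at 24.1 and 10.7 (2.25, 1.35 to 3.69). Usp18, the protease that removes Isg15 from proteins and damps the type I receptor, was at 3.12 and 3.54 CPM over all cells. Ifit3 was at 1.53 and 0.448 CPM over all cells, from 23 and 10 UMIs, and at 0 in Ccr6-positive cells of both libraries. The floor of 3 UMIs is 2.15 and 1.84 CPM there. Ifit2, a relative that binds short RNA, had 9 and 5 UMIs in all.

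Ifit1, which binds viral RNA that lacks the host cap mark (chr19:34640871-34650009), was spread over few cells. Its level over all cells was 8.22 CPM in the small intestine against 7.39 in the colon, but its 165 colonic UMIs lay in 55 cells and 4 of them held 50.3%, against 124 UMIs in 80 small intestinal cells, of which 4 held 18.5%. In Ccr6-positive cells Ifit1 was at 5.75 and 31.2 CPM, 5.43-fold higher in the colon (2.56 to 13.3), and in Ncr1-positive cells at 7.38 and 18.4, 2.49-fold higher (1.55 to 4.03). A single colonic cell, positive for Ccr6 and for Ncr1, held 28 of the 51 and 28 of the 41 UMIs behind the colonic values. Without its top cell the colonic level was 14.1 CPM in Ccr6-positive and 5.84 in Ncr1-positive cells, and the log2 ratio in Ncr1-positive cells went from −1.32 to 0.21. A further colonic Ccr6-positive cell held 16 Ifit1 UMIs, so the 14.1 CPM also rested largely on that cell. The counting intervals assume that UMIs fall independently over cells, so for Ifit1 they are too narrow. Those of the antiviral sum are too narrow as well. With cells thinned to equal depth, its variance over the mean was 1.86 in all small intestinal and 2.39 in all colonic cells. It was 4.29 in colonic Ccr6-positive and 2.56 in colonic Ncr1-positive cells. For the GTPase sum it was 1.27 and 1.21 over all cells and 1.37 in colonic Ncr1-positive cells. The GTPase intervals are thus somewhat too narrow as well. For Isg15 alone the variance over the mean was not measured, so its intervals may also be too narrow. In Gata3-positive cells Ifit1 was at 10.3 and 2.37 CPM, a ratio of 4.33 (2.74 to 6.96), where the top cell held 11.5% and 18.8% of its UMIs.

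Cells rich in antiviral transcripts differed in make-up between the libraries. At least 10 antiviral UMIs were found in 13 small intestinal and 26 colonic cells, which held 8.60% and 11.5% of the antiviral UMIs. In the colon Isg15 and Ifit1 made up at least 90% of the antiviral UMIs in 18 of the 26 cells, and 14 of the 26 had no GTPase UMI, the median being 0. In the small intestine this was so of 5 and 1 of the 13 cells, the median GTPase count was 3, and 8 of the 13 had at least 4 antiviral genes, against 7 of the 26 in the colon. The colonic cell with most antiviral UMIs had 55, of which 26 were Isg15 and 28 Ifit1, and no GTPase UMI. These cells were picked by their antiviral counts, so the values describe them and test nothing.

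**Figure D4:**
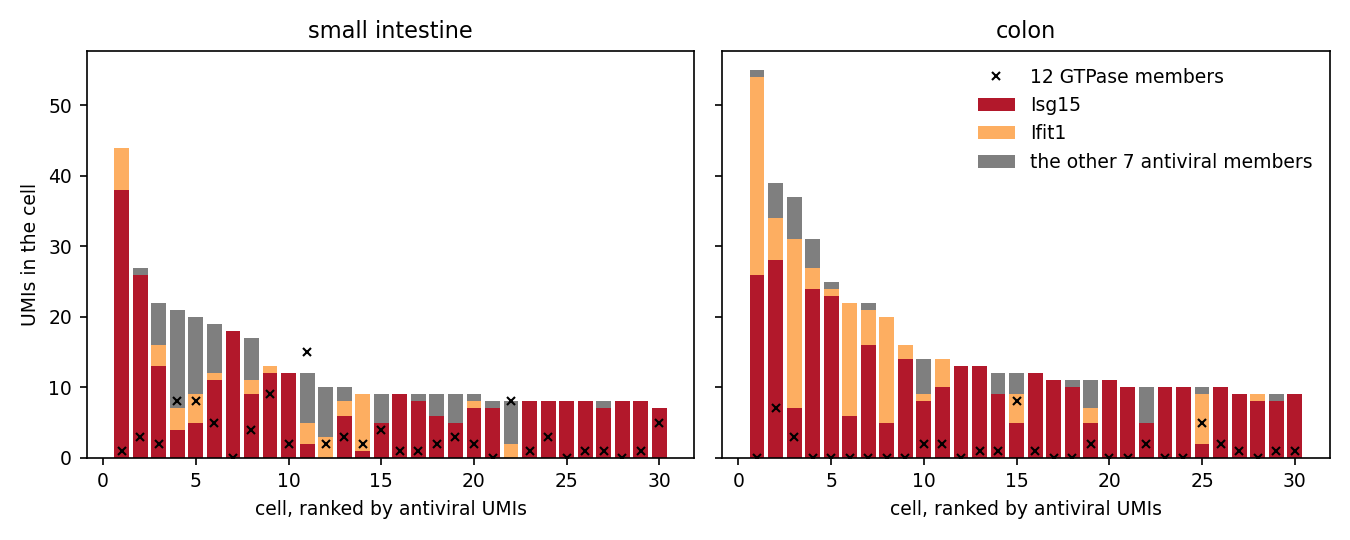
UMIs per cell (y axis) in the 30 cells with most antiviral UMIs of each library, ranked (x axis): stacked bars give Isg15, Ifit1 and the other 7 antiviral members, and crosses give the summed UMIs of the 12 GTPase members in the same cell. In the colon the leading cells are mostly Isg15 and Ifit1 with crosses at or near 0, and in the small intestine several hold other antiviral members and GTPase UMIs as well.

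Over all cells, GTPase transcripts were met more often in the small intestine and antiviral transcripts about equally often. With each cell thinned to 1000 UMIs, a GTPase UMI was found in 24.97% of small intestinal cells (23.8 to 26.1) and 17.0% of colonic cells (16.2 to 17.9), and an antiviral UMI in 13.2% and 13.5%. Without thinning the shares were 50.8% and 38.5%, and 28.9% in both. In Ncr1-positive cells an antiviral UMI was found in 13.5% and 20% of thinned cells, and in Cd3e-positive cells in 17.9% and 11.1%. In Klrd1-positive cells it was found in 16.9% and 14.7%, the opposite order to their sums, though the intervals overlapped (11.6 to 23.3 and 11.7 to 18.2). A GTPase UMI was met in 29.2% of small intestinal cells with an antiviral UMI and in 24.3% of those without, and in 19.7% and 16.6% in the colon. Free RNA, read from barcodes with 10 to 50 UMIs, was estimated at 5.36% and 8.25% of the UMIs of a cell and held the members at a median of 0.828 and 0.883 times their level in cells. No cell type of these libraries is known to lack these genes, so a background share was not measured directly.

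Among the transcription factors, Irf1, the gamma-induced activator of the GTPase genes, was at 113 and 85.5 CPM over all cells. It was lowest in colonic Ccr6-positive cells, 69.8 CPM against 114 in the small intestine, and highest in colonic Ncr1-positive cells, 145 against 122. Irf7, the factor that amplifies type I interferon, was at 77.5 and 40.2 CPM over all cells, and in Gata3-positive cells at 57.2 and 25.3, a ratio of 2.26 (1.93 to 2.65). In Ncr1-positive cells it was at 116 and 72.2 CPM, and in Cd3e-positive and Ccr6-positive cells the libraries were near equal, at 88.5 and 88.9 and at 33.0 and 31.8. Irf9, a part of the ISRE-binding complex, was at 19.96 and 13.9 CPM and Stat2, its partner, at 12.2 and 13.7. Of the 4 factors Irf7 in Gata3-positive cells was thus the case past 2-fold.

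The membrane restriction members did not share 1 direction. Bst2 (tetherin, which holds budding virus at the cell surface; chr8:71534255-71537456) was at 598 and 435 CPM in Ccr6-positive cells, against 113 to 162 in the other 4 small intestinal groups and 118 to 199 in the other 4 colonic groups. It was higher in the small intestine in Ccr6-positive cells by 1.38-fold (1.24 to 1.52) and higher in the colon in Ncr1-positive cells by 1.76-fold (1.55 to 2.002), at 113 and 199 CPM. Ifitm3, which blocks virus entry at endosomes, was the member furthest towards the colon, at 2.59 and 22.3 CPM over all cells, 8.61-fold (6.21 to 12.2). In Gata3-positive cells it was at 3.35 and 27.5 CPM, 8.21-fold (5.06 to 14.2), from 17 and 372 UMIs, with no more than 9 UMIs in 1 colonic cell. In Cd3e-positive cells Ifitm3 was at 1.72 and 6.64 CPM, from 2 and 28 UMIs, with an interval that included equality. Ifitm2 was at 21.7 and 50.2 CPM in Ncr1-positive cells, 2.31-fold higher in the colon (1.75 to 3.05), at 55.4 and 92.3 in Klrd1-positive cells and at 56.8 and 51.0 in Gata3-positive cells. In cells positive for Ncr1 and none of the other markers the log2 ratio of Ifitm2 was 0.18, so its colonic excess was not seen there. Ifitm1, of the same family, had 2 small intestinal and 12 colonic UMIs.

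The 8 sensors and effectors were higher in the small intestine over all cells in 8 of 8 cases, with a median log2 ratio of 0.61. Over all genes tested 8164 of 11962 were higher there, with a median of 0.20. None of the 8 passed 2-fold, beside a background of 8.92% and 5.42%. Zbp1, a sensor of Z-form nucleic acid, was at 36.9 and 25.7 CPM, and Samhd1, which depletes nucleotides, at 108 and 85.1. Rnf213, a large ubiquitin ligase that coats bacteria, was at 30.9 and 9.80 CPM in Ccr6-positive cells, a ratio of 3.15 (1.74 to 5.995), and at 20.6 and 9.72 in Cd3e-positive cells (2.12). Xaf1, a pro-apoptotic protein, was at 16.5 and 6.12 CPM in Ccr6-positive cells (2.70, 1.24 to 6.35). Dhx58 (LGP2, a regulator of RNA sensing) was at 5.06 and 0.448 CPM in Ncr1-positive cells from 24 UMIs and 1 UMI, and the interval of its ratio ran from 1.84 to 464. Ifi27l2a, a small membrane protein gene, was highest in cells with T or NK cell markers: 35.2 and 6.64 CPM in Cd3e-positive cells (5.30, 3.20 to 8.91), 23.4 and 13.4 in Klrd1-positive cells, 4.14 and 4.81 in Gata3-positive cells and no more than 3 UMIs per library in Ccr6-positive and Ncr1-positive cells. Parp14 and Trim30a, at 22.7 and 14.2 and at 31.7 and 21.6 CPM, followed the list.

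Of the antigen processing members, Psmb8, an immunoproteasome subunit, was the most abundant of the 40 members over all cells, at 461 and 374 CPM, and over the groups it ran from 418 to 500.3 in the small intestine and from 370.4 to 483 in the colon. Psmb9, its partner subunit, was at 109 and 71.9 CPM and Tap1, which carries peptides into the endoplasmic reticulum, at 55.8 and 48.4. None of the 3 passed 2-fold in any group. In the related list of MHC class I genes, also 0 of 8 passed 2-fold over all cells. B2m, the light chain of class I, was at 5002 and 4793 CPM. Over all genes 8.92% and 5.42% passed 2-fold over all cells, and 3.4% to 9.26% each way in the groups. With so few genes, 0 of 3 and 0 of 8 are near that background.

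The upstream pathway was described from lists of receptors, kinases, ligands and regulators. Ifng, the gene of interferon gamma, was at 118 and 162 CPM in Ncr1-positive and at 147 and 148 in Klrd1-positive cells, against 38.3 and 18.1 in Gata3-positive cells, a ratio of 2.12, and 37.8 and 41.3 in Cd3e-positive cells. In Ccr6-positive cells Ifng was at 7.18 and 30.002 CPM, from 10 and 49 UMIs, 4.18-fold higher in the colon (2.09 to 9.25). Of these 541 and 357 cells, 4 and 22 were also Klrd1-positive and 10 and 48 also Cd3e-positive. The part of this in the ratio was not tested. The other 5 ligands, Ifnb1, Ifnl2, Ifnl3, Ifna4 and Ifne, had 0 UMIs in both libraries. The floor of 3 UMIs is 0.199 CPM in the small intestine library and 0.134 in the colon. The ILCs were therefore seen with transcripts of the gamma ligand and without those of the type I and lambda ligands listed.

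Of the 8 receptors and kinases none passed 2-fold over all cells, beside the background given above. Ifngr1, the binding chain of the gamma receptor, was lowest in Gata3-positive cells, 760.3 and 597 CPM, and was at 1510.3 and 1655 in Ncr1-positive cells. Ifngr2, the signalling chain, was scarce in Ncr1-positive (24.0 and 36.8 CPM) and Klrd1-positive cells (21.3 and 24.8), against 79.5 and 53.2 in Gata3-positive and 93.4 and 98.6 in Ccr6-positive cells. Ifngr1 was at 850.3 and 1046 CPM in Ccr6-positive and at 1292 and 1640.2 in Klrd1-positive cells, so in both libraries the cells with most Ifngr2, the Ccr6-positive, were not those with most Ifngr1. Ifnar1, a type I receptor chain, was at 101 and 130.5 CPM over all cells.

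Among 5 negative regulators, Ptpn6 (SHP-1, a phosphatase) was at 118 and 44.6 CPM over all cells, 2.66-fold higher in the small intestine, and Socs1, the feedback inhibitor of JAK kinases, at 73.4 and 152 in Ncr1-positive cells, 2.07-fold higher in the colon. Of 11 further gamma-linked genes 8 had enough UMIs over all cells; 4 were past 2-fold towards the small intestine and 0 towards the colon. The background over all genes was the 8.92% and 5.42% given above. The 4 were Tgtp1 (5.04 and 1.43 CPM) and Tgtp2 (6.17 and 2.51), both IRG genes, Ciita, the MHC class II activator (5.31 and 2.06), and Cxcl9, a chemokine (2.92 and 1.39). Tgtp1 and Tgtp2 are near-identical, so reads may be split between them. Cxcl10, a chemokine of both routes, was higher in the colon in Ccr6-positive (58.2 and 133 CPM), Ncr1-positive (58.2 and 143), Klrd1-positive (10.6 and 72.0) and Cd3e-positive cells (39.5 and 105), and slightly higher in the small intestine in Gata3-positive cells (67.3 and 52.2). Of 21 further type I genes 16 had enough UMIs; Rsad2 (viperin, 5.50 and 2.19 CPM) and Ifi204, a DNA sensor (7.36 and 1.75), were past 2-fold towards the small intestine and Slfn5 (3.58 and 7.70) towards the colon, 2 and 1 of 16 and so near that background.

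Other genes also differed with the tissue within these groups. The stress list (Hspa1a, Hspa1b, Fos, Jun and Dnajb1) summed to 3911 and 2797 CPM over all cells and to 6316 and 3601 in Ccr6-positive cells, although the median log2 ratio of its 5 genes was −0.35 and −1.88; Hspa1a was at 105 and 529.6 CPM in Ccr6-positive cells. In Klrd1-positive cells the ILC1 and NK list summed to 11505 and 5713 CPM, Gzma being at 1931 and 9.55, and the T cell list to 2655 and 1409.7. In Gata3-positive cells the ILC2 list, which includes Gata3, summed to 1633 and 2169 CPM and the ILC3 list to 2722 and 1113. In Ncr1-positive cells the B and plasma cell list summed to 2832 and 108 CPM. As few cells held most immunoglobulin UMIs, the 2832 may rest on very few cells, which was not counted. The marker-positive groups therefore did not hold the same mix of cells in both libraries, and the part of this in the member ratios was not tested.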

How the data were processed

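Cells were captured with the 10x Genomics Chromium 3′ v2 chemistry, per the labels' protocols. The authors deposited UMI counts per gene and cell as a matrix for each library and as 1 table of chosen cells; Cell Ranger 3.0.2 and the mm10 build are named in the submitters' processing notes. How the authors chose the cells is not given in the sources used here: each had at least 1111 UMIs and at most 4.94% mitochondrial UMIs. Table and matrices held the same counts in these cells. Genes missing from the table had 0 UMIs in them.

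Counts were summed per library and marker-positive group and divided by the UMIs of the group (CPM). Intervals at the 95% level were exact Poisson for levels, exact conditional binomial for ratios and Clopper-Pearson for shares. The ratio step was run on simulated Poisson counts, which checks the computation only. Those counts hold no extra spread over cells, so the simulation cannot show whether the intervals are wide enough here. The intervals cover counting error only and assume that UMIs fall independently over cells. Those of Ifit1 and the antiviral sum are therefore too narrow, and those of the GTPase sum are somewhat too narrow. The members and all lists were chosen with earlier results of these data known. The text names members with at least 20 UMIs over both libraries and at least 2-fold between them, at most 10 each way per comparison. No doublet caller was run; cells positive for 1 marker and cells without the top 5% of UMIs were alternatives, as were thresholds, scaling by the median gene ratio and subtraction of free RNA. Chosen after seeing the data were the removal of the cell with most antiviral UMIs and of cells with 10 or more UMIs of a set. Gene positions are from GENCODE vM21 (GRCm38). Python 3.11.15, numpy 2.4.6, scipy 1.17.1, pandas 2.3.3 and matplotlib 3.10.9 were used.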

Additional observations from a re-analysis of the deposited data

Results flagged for a closer look

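The libraries stood in opposite orders in different groups of cells for 2 lists, and these differences between groups were not tested. The antiviral sum had a log2 ratio, small intestine over colon, of 0.44 in Gata3-positive and 0.79 in Cd3e-positive cells, and of −0.76 in Ccr6-positive and −0.53 in Ncr1-positive cells. Isg15 carried the negative value in Ncr1-positive cells, and Isg15 with Ifit1 that in Ccr6-positive cells, as given above. A single colonic cell held 54.9% of the colonic Ifit1 UMIs in Ccr6-positive and 68.3% in Ncr1-positive cells. The membrane restriction sum had a log2 ratio of 0.39 in Ccr6-positive and 0.18 in Gata3-positive cells, and of −0.91 in Ncr1-positive and −0.49 in Klrd1-positive cells. Bst2 gave most of that sum.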

How the results depend on the processing

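No paired analysis was possible because there was 1 library per tissue, so no library could be left out. The alternative sums, shares and counts that follow went beyond counting error or 1.5 times a count. Subtracting free RNA moved no value that far, and the limit of 5% mitochondrial UMIs left out no cell, so it tests nothing. Groups are given in the order named. In cells positive for 1 marker, the log2 ratio of the GTPase sum was −0.012 in Ncr1-positive and 0.18 in Cd3e-positive cells, and that of the antiviral sum −1.08, −0.37, 0.56 and 0.50 in Ccr6, Ncr1, Gata3 and Cd3e-positive cells. With at least 2 marker UMIs the antiviral sum gave −0.26 in Ncr1 and 0.65 in Gata3-positive cells and the GTPase sum 0.44 in Klrd1-positive cells. Median-ratio scaling gave 0.10 and 0.77 for the GTPase and −0.74 and 0.28 for the antiviral sum in Ncr1 and Gata3-positive cells. Without the top 5% of cells the antiviral sum gave −1.08 in Ccr6 and −0.69 in Ncr1-positive cells and the GTPase sum 0.17 in Ncr1-positive cells. Without Isg15 the antiviral sum gave 0.56, 0.86, 0.57 and 1.12 in Ncr1, Gata3, Klrd1 and Cd3e-positive cells. Without cells with 10 or more UMIs of a set it gave −0.33 in Ccr6-positive cells.

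The share of all genes past 2-fold was not measured at these other settings, and it may shift with them. The counts below thus show only how far the calls moved and are no result about the members. Counts of members past 2-fold towards the small intestine became, with 50 UMIs required, 1 in Ncr1 and 2 in Klrd1-positive cells. With no minimum they were 5, 11 and 12 in Ccr6, Klrd1 and Cd3e-positive cells. In cells positive for 1 marker they were 5, 1 and 3 in Ncr1, Klrd1 and Cd3e-positive cells, with 2 marker UMIs 1 in Ccr6 and 0 in Klrd1-positive cells, and without the top 5% of cells 3 in Klrd1-positive cells. Counts towards the colon became 3, 1, 2 and 0 in Ccr6, Ncr1, Gata3 and Cd3e-positive cells with 1 marker, 1, 2 and 0 in Ncr1, Klrd1 and Cd3e-positive cells with 2 marker UMIs, 2, 5 and 1 in Ccr6, Ncr1 and Klrd1-positive cells with no minimum, 2, 1 and 0 in Gata3, Klrd1 and Cd3e-positive cells without the top 5%, 0 in Cd3e-positive cells with 50 UMIs and 0 in Ccr6-positive cells without cells rich in a set.

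The GTPase share in cells positive for 1 marker was 56.9% and 60.0% in small intestinal Gata3 and Klrd1-positive cells, and 59.8%, 49.5%, 48.2% and 65.7% in colonic Ncr1, Gata3, Klrd1 and Cd3e-positive cells. With 2 marker UMIs it was 73.8%, 54.6% and 60.9% in small intestinal Ccr6, Gata3 and Klrd1-positive cells, and 53.8%, 56.7% and 50.1% in colonic Ccr6, Ncr1 and Klrd1-positive cells. Without the highest gene of each set it was 80.7%, 78.2%, 81.4%, 83.7% and 72.8% in small intestinal and 64.1%, 80.8%, 80.8%, 81.2% and 80.4% in colonic Ccr6, Ncr1, Gata3, Klrd1 and Cd3e-positive cells, so in Ncr1-positive cells the colon then had the higher share. In colonic Ccr6-positive cells it was 40.2% without the top 5%, 50.3% without the cell with most antiviral UMIs and 52.8% without cells rich in a set, which also gave 56.2% and 52.5% in colonic Ncr1 and Gata3-positive cells. Unthinned shares of cells with a UMI were 50.8% and 38.5% for the GTPase and 28.87% and 28.9% for the antiviral members.

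Among single genes, the log2 ratio of Ifit1 in Ncr1-positive cells was 0.32 with 2 marker UMIs, 1.61 with 1 marker, 0.21 without the top antiviral cell and 0.62 without cells rich in a set. In cells with 1 marker Ifitm2 was at 0.18 in Ncr1-positive and Ifit1 at −0.90 in Cd3e-positive cells. Other causes of these shifts were not tested. The depth limits genes under 3 UMIs per library and group.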

Other observations

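The cells with none of the 5 markers, 1882 small intestinal and 1615 colonic, were near the whole libraries in the GTPase ratio but not in the antiviral one. Their GTPase sum was 296 and 183 CPM, a ratio of 1.62 (1.48 to 1.77), and their antiviral sum 155 and 183 CPM, a ratio of 0.848, where all cells had 1.05. Isg15 was at 91.4 and 130.3 CPM in them, Rnf213 at 22.7 and 8.08, and Ifitm3 at 3.85 and 27.4. They also held most B and plasma cell transcripts, 19338 and 11452 CPM, most of them in few cells as given above. They thus mix ILCs without a caught marker UMI with at least a few other cells. After thinning to 1000 UMIs, 5% of all cells held 36.2% and 40.04% of the GTPase UMIs and 53.7% and 53.5% of the antiviral UMIs of the small intestine and the colon.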
